A study of Mus musculus with 36 samples.

Results

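The C3B6F1 sons and their virgin sisters are the male and female offspring of C3H/HeN (C3) dams mated to C57BL/6N (B6) sires, and their livers were compared for the methylation of cytosine at CpG dinucleotides. The 6 animals are defined by their sex and cross alone, 3 sons and 3 daughters, out of 24 animals with whole-genome bisulfite libraries among the 36 samples of the series. All 6 were untreated F1 hybrids carrying 1 haploid genome from each parent strain. They came from 3 families of a sire, a dam, a son and a daughter, and were killed at the common age of 20 weeks, so that neither strain nor age separated the autosomes of sons and daughters. The remaining groups, also 3 animals each, were the B6 and C3 sires and dams and the sons and daughters of the reciprocal cross, B6C3F1 (B6 dam and C3 sire). The dams had borne and nursed a litter by then and the daughters of both crosses had not.

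CpG methylation is a chemical mark on DNA that is copied at cell division and is usually low at active promoters and enhancers and high elsewhere. In rodent liver, many genes of steroid, drug and lipid metabolism are expressed at different levels in males and females, largely because growth hormone is released in pulses in males and more evenly in females and acts through the transcription factor STAT5. The homeodomain protein CUX2 is a female-biased regulator in that system, and cytochrome P450 genes such as Cyp2d9 (male-biased) and Cyp2b9 and Cyp2b13 (female-biased) are among its known outputs. Gene expression was not measured in these files.

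Methylated and unmethylated read counts were available at 18887127 autosomal CpGs. Total autosomal counts per animal ranged from 368500712 to 608172774, a mean of 19.5 to 32.2 counts per CpG. The sex chromosomes were kept out of every test and served as a check of the labels. The ratio of counts per CpG on chromosome X to those on the autosomes was 0.897, 0.948 and 0.963 in the daughters and 0.493 and 0.509 in C3B6F1 sons 2 and 3, but 0.600 in C3B6F1 son 1. The 11 other males of the series lay between 0.477 and 0.521 and the 12 females between 0.893 and 0.988. At 670 CpG-dense windows of chromosome X, the median methylation of son 1 was 11.7%, against 1.28% and 1.06% in sons 2 and 3 and 27.8%, 26.6% and 28.7% in the daughters. Son 1 was singled out by its depth ratio, which is therefore a description, and results are given with and without it.

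The sequences below, from the mm9 reference and its plus strand, are stretches of 300 bases inside windows described further on, written 5′ to 3′ with every CpG that has counts in capitals. The first lies in the window upstream of Rai14, which encodes an actin-associated ankyrin repeat protein, at chr15:10648618-10648917. It is shown because it was a large difference in a stretch with no known strain variant, and each of its 10 CpGs differed. The second, at chr5:122451078-122451377, is intronic to Cux2 and is shown because it carried the largest difference in the opposite direction. The third, at chr10:127305011-127305310 in an intron of BC089597, and the fourth, at chr7:26855545-26855844 in an intron of Cyp2b13, are also sites of higher methylation in sons.
Rai14: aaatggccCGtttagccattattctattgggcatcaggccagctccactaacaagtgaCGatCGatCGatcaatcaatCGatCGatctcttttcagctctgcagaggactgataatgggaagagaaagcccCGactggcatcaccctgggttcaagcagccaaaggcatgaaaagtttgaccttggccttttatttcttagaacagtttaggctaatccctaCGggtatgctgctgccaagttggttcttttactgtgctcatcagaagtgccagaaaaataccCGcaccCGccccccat
Cux2: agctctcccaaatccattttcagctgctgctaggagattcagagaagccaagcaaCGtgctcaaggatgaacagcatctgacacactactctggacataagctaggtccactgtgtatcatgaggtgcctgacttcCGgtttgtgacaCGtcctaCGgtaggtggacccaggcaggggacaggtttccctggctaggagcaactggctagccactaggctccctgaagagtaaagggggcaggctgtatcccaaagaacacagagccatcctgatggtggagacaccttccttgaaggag
BC089597: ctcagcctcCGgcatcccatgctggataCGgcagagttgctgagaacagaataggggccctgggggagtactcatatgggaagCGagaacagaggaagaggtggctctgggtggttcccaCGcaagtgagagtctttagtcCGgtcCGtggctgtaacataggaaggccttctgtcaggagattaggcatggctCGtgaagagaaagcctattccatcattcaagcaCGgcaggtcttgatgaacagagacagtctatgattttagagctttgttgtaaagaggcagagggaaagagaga
Cyp2b13: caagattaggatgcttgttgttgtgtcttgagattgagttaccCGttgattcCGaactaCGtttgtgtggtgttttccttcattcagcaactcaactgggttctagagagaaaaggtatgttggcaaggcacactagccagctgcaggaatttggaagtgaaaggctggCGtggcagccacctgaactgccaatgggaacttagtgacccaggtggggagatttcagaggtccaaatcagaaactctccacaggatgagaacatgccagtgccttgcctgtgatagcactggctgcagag
In the Rai14 stretch the pooled methylation of the 3 sons ranged from 21.4% to 33.9% over the 10 CpGs and that of the daughters from 61.5% to 90.4%. These bases hold ATCGAT 4 times, ATTGAT 2 times and TTCNNNGAA 1 time, counted on both strands, where TTCNNNGAA is the core letters of the STAT motif and the others are core letters of the motif shared by the Onecut and Cux proteins. The Cux2 stretch holds TTCNNNGAA 2 times and neither of the others. In the BC089597 stretch the sons ranged from 72.0% to 90.1% and the daughters from 34.9% to 52.3% over 8 CpGs, and none of those letters occurred in it or in the Cyp2b13 stretch.

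The comparison of sons with daughters asks where liver methylation differs between the sexes when both carry the same hybrid genome. Daughters were the more methylated sex at most sites of difference. Fixed windows of 500 bp were used, with at least 5 CpGs and at least 30 counts in each of the 24 animals, which left 1456902 autosomal windows. Of these, 623 (0.0428%) differed by at least 20 percentage points with an adjusted p below 0.05 by limma with Benjamini-Hochberg adjustment, 589 (0.0404%) higher in daughters and 34 (0.00233%) higher in sons. Higher methylation in daughters thus made up 94.5% of the differing windows. Without son 1 the number was 751 (0.0515%), of which 699 (0.048%) were higher in daughters and 52 (0.00357%) higher in sons. Of the 623 windows, 566 were called again without son 1, 57 were lost and none turned, and 185 others were gained. Without son 3 the count fell to 376, of which 359 were higher in daughters and 17 higher in sons. In whole liver DNA, a difference in the share of a cell type and a difference in the methylation of its cells cannot be told apart.

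The 623 windows lay in 548 separate regions, 517 higher in daughters and 31 higher in sons, and 56 regions joined more than 1 window. The median difference was 25.2 points where daughters were higher, with quartiles of 22.3 and 30.0 points, and 31 windows differed by at least 40 points. Where sons were higher the median difference (daughters minus sons) was -23.3 points and 4 windows passed 40 points. Over all tested windows the median difference was -0.185 points and the median size of a difference 1.50 points. In all 623 windows the 3 sons and the 3 daughters did not overlap, and this was so in 156183 (10.7%) of all windows tested. The 623 were chosen for a difference between these same animals, so their lack of overlap is a description. Mean autosomal CpG methylation was 77.0% ± 0.561 in sons and 76.6% ± 0.321 in daughters (SD, n = 3 each), a difference of -0.352 points (two-sided exact permutation p = 0.4, with 0.1 the smallest that 3 against 3 allows). Without son 1 the difference was -0.640 points (two-sided exact permutation p = 0.2, the smallest that 2 against 3 allows), and it was -0.0794 points without son 3 and -0.174 points without daughter 1.

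Averaged over the 589 windows higher in daughters, the sons were at 48.7%, 44.7% and 39.6% and the daughters at 69.3%, 72.7% and 72.5%. Averaged over the 34 windows higher in sons, the sons were at 62.3%, 67.9% and 69.5% and the daughters at 39.6%, 39.0% and 41.5%. Son 1 was the son nearest to the daughters in both sets. The windows were chosen for these differences, so the separation itself is a description. In these means the C3B6F1 sex with the lower level was at intermediate methylation and not at the low level of an active promoter, although some single windows were low. Of the 589 windows, 83.0% had sons between 20% and 60%, a range that held 7.86% of all windows. Sons were under 20% in 2.38% of the 589. Daughters were at 60% or more in 80.8% of the 589 and in 87.4% of all windows. Sons were at 60% or more in 87.3% of all windows. A call requires sons at least 20 points below daughters, which keeps sons off the highest levels. The contrast with 7.86% is thus largely set by the choice of windows and is a description.

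**Figure D1:**
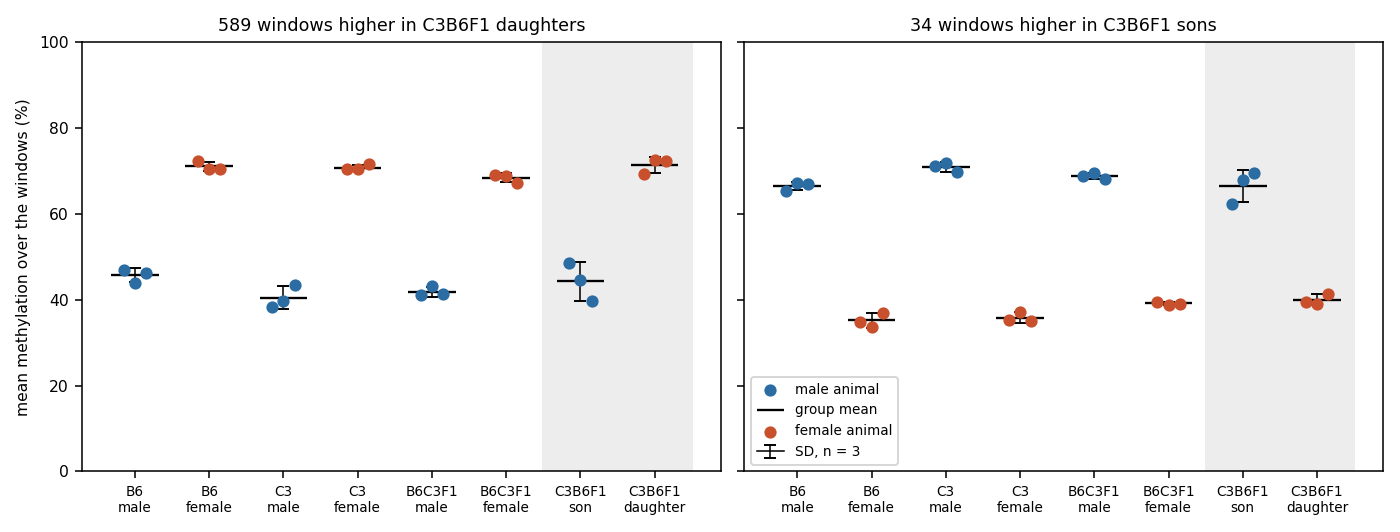
Mean methylation (percent) over the 589 windows higher in C3B6F1 daughters and over the 34 windows higher in C3B6F1 sons, for each animal (points) in the 8 groups, with the group mean and SD (n = 3). The windows were chosen for the difference between the C3B6F1 groups, with the other 6 groups entering the count minimum and the spread, and in every strain or cross the sexes separate in the same direction, with B6, C3 and B6C3F1 males at group means of 45.7%, 40.5% and 41.9% and females at 71.1%, 70.8% and 68.4% in the larger set.

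The regions higher in daughters that are named here differed by 46.0 to 60.1 points. In an intron of Sntg2, which encodes a syntrophin (a cytoskeletal adaptor), at chr12:31026501-31027000, sons were at 36.8%, 27.0% and 29.1% and daughters at 79.1%, 90.2% and 91.4%. The difference was 55.9 points (log2 ratio of methylated to unmethylated counts 3.93 ± 0.28 SE, limma adjusted p = 3.82e-09), and 58.8 points without son 1. This window holds 3 known single-nucleotide variants between the strains and the reference. In an intron of Dock1, an activator of the small GTPase Rac, at chr7:142235501-142236000, sons were at 36.1%, 32.5% and 33.4% and daughters at 82.7%, 92.7% and 90.9%, a difference of 54.7 points (4.00 ± 0.29, limma adjusted p = 3.82e-09). The sons here lay within 4 points of each other, son 1 included. At chr15:10648501-10649000, 4115 bp upstream of Rai14, sons were at 35.4%, 22.0% and 24.2% and daughters at 72.6%, 83.4% and 81.3%, a difference of 51.9 points (limma adjusted p = 7.71e-09). Here son 1 was the highest son, and without it the difference was 56.0 points.

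An intron of Fgfr2, a receptor for fibroblast growth factors, had sons at 40.8%, 28.1% and 15.7% and daughters at 68.1%, 87.4% and 84.4% at chr7:138598501-138599000. The spread between animals was wide there, and the difference of 51.8 points (limma adjusted p = 0.00646) no longer passed without son 3 (adjusted p = 0.0877), daughter 2 (0.0776) or daughter 3 (0.0659). The remaining named regions were at differences of 46.0 to 50.1 points, with limma adjusted p from 7.71e-09 to 3.97e-07. They lay between genes, with the start of Large (a glycosyltransferase that modifies dystroglycan) the nearest at 549562 bp, in an intron of Ttc39c, 71084 bp downstream of the start of Oma1 (a mitochondrial inner membrane protease), 115640 bp upstream of Dap and 535 bp upstream of Cml5. In each of these 5 the highest son stayed at or below 42.0% and the lowest daughter at or above 64.8%. Leaving out any 1 animal left each of them called.

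The largest difference of all stood apart from these by its read depth. At chr6:124589001-124589500, 1946 bp upstream of Gm5077, sons were at 45.8%, 20.4% and 24.4% and daughters at 90.6%, 87.6% and 92.7%, a difference of 60.1 points (limma adjusted p = 4.02e-09). Counts per CpG in this window were 55.1, 102 and 56.4 in the sons and 21.3, 18.1 and 17.1 in the daughters. With each animal scaled to its own mean depth, the sons had 3.96 times the depth of the daughters, the highest ratio of all 1456902 windows, and males of the other groups had 3.20 times that of females. The other differing windows lay between 0.680 and 1.35. The stretch chr6:124589115-124589414 is printed because its repeat, a run of tgga units that passes into a run of cgga units, holds the CpGs that differed.
Gm5077: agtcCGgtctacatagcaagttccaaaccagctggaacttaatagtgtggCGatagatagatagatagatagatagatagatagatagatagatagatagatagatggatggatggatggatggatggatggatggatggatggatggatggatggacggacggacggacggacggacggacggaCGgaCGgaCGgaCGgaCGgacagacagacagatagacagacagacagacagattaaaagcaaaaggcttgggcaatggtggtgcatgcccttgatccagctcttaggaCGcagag
At the 5 listed CpGs of the repeat, sons were at 19.3% to 26.3% with 270 to 322 pooled counts and daughters at 84.7% to 89.8% with 58 to 61. At the 3 CpGs outside it, sons were at 93.6%, 89.8% and 87.7% and daughters at 98.1%, 96.1% and 92.5%, with 47 to 65 counts per group. The sexes were thus far apart inside the repeat and within 7 points outside it. The part of the depth in this difference was not tested.

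Higher methylation in sons was found in fewer places, among them Cux2 and the female-biased cytochrome P450 genes Cyp2b9, Cyp2b13 and Cyp2c69. The lead window in Cux2, at chr5:122451001-122451500, lies in an intron, and the region that holds it is 853 bp from an annotated internal start site. Sons were at 51.5%, 84.4% and 84.4% and daughters at 26.7%, 20.5% and 35.2%, a difference of -45.95 points (-3.02 ± 0.39, limma adjusted p = 9.22e-05). Son 1 lay far below the other sons, and without it the difference was -56.9 points (limma adjusted p = 2.31e-08). Fitted on the 6 animals alone, without the other groups to estimate the spread, the adjusted p was 0.0624. The intronic window of BC089597, at chr10:127305001-127305500, had sons at 70.5%, 91.8% and 93.8% and daughters at 33.0%, 34.8% and 51.7%. This difference was -45.5 points (limma adjusted p = 8.78e-05), -52.9 points without son 1, and missed the threshold on the 6 animals alone (adjusted p = 0.0587).

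Cyp2b9 and Cyp2b13, neighbouring female-biased cytochrome P450 genes of drug and steroid metabolism on chromosome 7, were both more methylated in sons. At chr7:26905001-26905500, 52930 bp upstream of Cyp2b9, sons were at 78.0%, 73.0% and 84.3% and daughters at 37.3%, 36.7% and 40.9%, a difference of -40.2 points (limma adjusted p = 9.54e-06). In an intron of Cyp2b13, at chr7:26855501-26856000, sons were at 82.6%, 91.4% and 87.1% and daughters at 66.7%, 40.7% and 56.8%, a difference of -32.3 points (limma adjusted p = 1.83e-05). Daughter 1 was the daughter nearest to the sons there, and the sexes did not overlap. A Cyp2b9 intron differed by -27.0 points and Cyp2c69, another female-biased P450, by -26.1 points. The other named regions had region differences of -30.8 to -33.7 points and lay near 2610002J02Rik, upstream of Nkx1-1 (a homeobox gene), in Abp1 (diamine oxidase) and in Adamts2 (a procollagen protease). P450 genes of 1 subfamily have near-identical copies, and reads could be placed on the wrong copy.

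**Figure D2:**
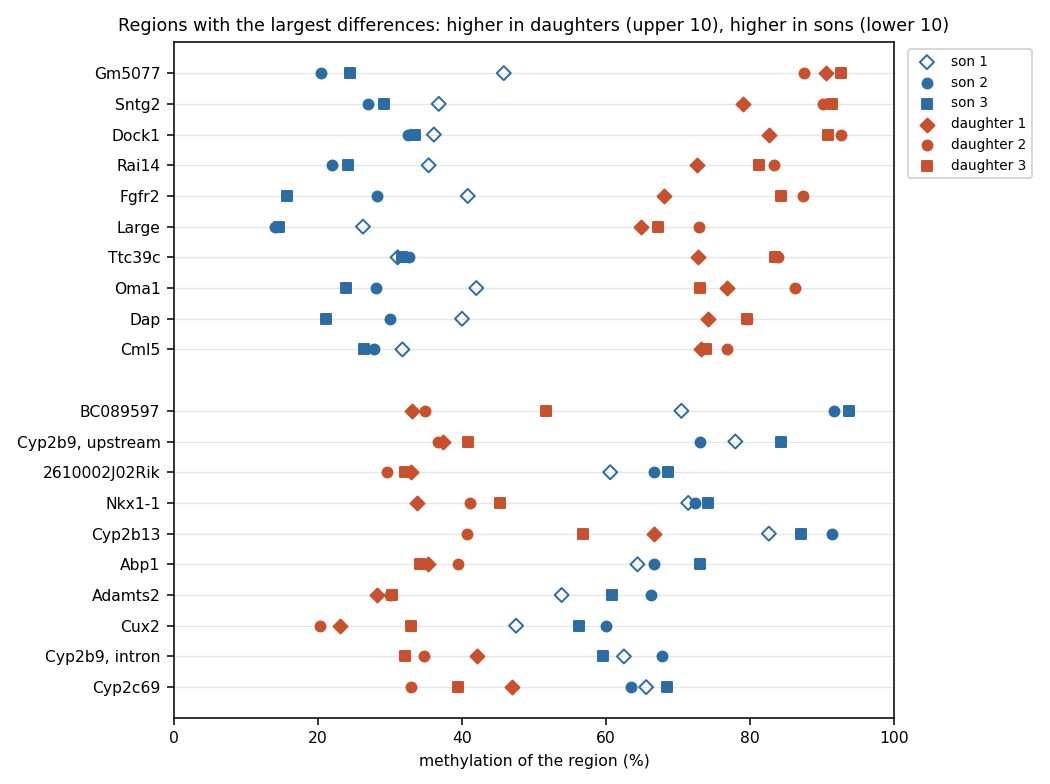
Methylation (percent, x axis) of the 3 sons and 3 daughters in each of the 20 named regions, the 10 largest in each direction, 1 dot per animal. The dots of the sexes are apart in every region, which was a condition for naming it. Son 1 is the son nearest the daughters in 16 of the 20 regions.

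Genes known for higher expression in male liver were more methylated in daughters wherever they were called. Of a list of 31 such genes, 30 had windows in the gene or its flanks, and 23 of their 1090 windows (2.11%) were called, all higher in daughters, in 10 genes, against 0.0404% of all windows. The list was chosen with earlier results of these data known, so its share is a description. Of the 23 windows, 8 lay in Scara5. The median difference over the list's windows was 0.462 points, against -0.185 over all windows. Scara5, a ferritin receptor, had the largest difference, with sons at 23.7%, 13.4% and 9.49% and daughters at 59.6%, 69.3% and 57.9% (46.8 points, limma adjusted p = 3.43e-07). Cyp2u1, a fatty acid hydroxylase, had sons at 46.4%, 42.9% and 27.8% and daughters at 73.0%, 81.3% and 82.0% (39.7 points). Both genes had their 3 sons well below their 3 daughters.

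Elovl3, an elongase of very long fatty acids, had sons at 12.0%, 15.2% and 9.88% and daughters at 35.1%, 62.8% and 48.0%, a difference of 36.3 points (limma adjusted p = 0.000416). Cyp2d9, a male-biased steroid hydroxylase, had sons at 63.0%, 43.6% and 38.3% and daughters at 82.8%, 83.4% and 85.7%, a difference of 35.7 points (limma adjusted p = 5.12e-06). Elovl3 was thus at low methylation in sons and intermediate methylation in daughters, while Cyp2d9 was intermediate in sons and high in daughters. The 6 other called genes, named after their values were seen, were Mup7 and Mup21 (major urinary proteins), Susd4 and C9 (complement proteins), Cyp7b1 (an oxysterol hydroxylase) and Serpina1e (an antitrypsin), with differences of 21.7 to 33.8 points. The major urinary protein genes and the Serpina1 genes are families of near-identical copies as well.

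Genes known for higher expression in female liver were more methylated in sons wherever they were called. Of 37 listed genes with 1611 windows, 10 windows (0.621%) were called, all higher in sons, in 6 genes, against 0.00233% of all windows. This list was likewise chosen with earlier results of these data known, so its share is a description. Of the 10 windows, 3 lay in Cux2. The median over the list's windows was -0.359 points, against -0.185 over all windows. Besides Cux2, Cyp2b13, Cyp2b9 and Cyp2c69, the called genes were Cyp2a4, a testosterone hydroxylase, at -22.7 points and A1bg at -20.0 points. In Cyp2a4 sons were at 77.8%, 87.5% and 82.7% and daughters at 48.7%, 64.3% and 66.9%. Over all 20734 protein-coding genes with tested windows, 295 (1.42%) had a window called higher in daughters and 21 (0.101%) a window called higher in sons.

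Lists that are not defined by sex bias had 0 to 3 called windows each, shares of 0.208%, 0.0858%, 0.0946% and 0.0% in the order below, against 0.0428% of all windows. They too were chosen with earlier results of these data known, so their shares are descriptions. Among 19 genes of growth hormone and STAT5 signalling, with 1441 windows, Cux2 was the only gene called, with 3 windows higher in sons. These are the same Cux2 windows counted in the female-biased list, so the share of 0.208% is no separate result. That list also shares Trim24 and Tox with this one, and the male-biased list shares Bcl6. Among 15 genes of steroid and xenobiotic receptors and steroid enzymes, with 1165 windows, 1 window in Srd5a1, which reduces testosterone to dihydrotestosterone, was called. Sons there were at 53.5%, 44.6% and 41.2% and daughters at 62.4%, 65.7% and 73.7% (20.8 points, limma adjusted p = 0.0126). Among 20 genes of lipid and bile acid metabolism, with 1057 windows, 1 window in Elovl6, a fatty acid elongase, was called at 22.4 points (limma adjusted p = 0.0109). On the limma adjusted p, the Srd5a1 call was lost without son 2 (0.0859), son 3 (0.179) or daughter 3 (0.197), and the Elovl6 call without son 2, son 3 or daughter 2 (0.118 to 0.138). Fitted on the 6 animals alone, both missed the threshold (limma adjusted p = 0.0857 for Srd5a1 and 0.0526 for Elovl6). Among 21 imprinted genes, with 1027 windows, none was called, and 1 was without son 1.

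The called windows were gathered in places. With called windows joined where they lay within 100 kb of each other, 12 groups of at least 4 windows held 110 of the 623. The groups and their genes were singled out after their values were seen. The largest, at chr18:12709001-12902500 over Cabyr, Lama3 (a laminin chain) and Ttc39c, had 50 of its 174 tested windows called, all higher in daughters, with a median difference of 29.0 points. Mean levels over those 50 windows were 49.5%, 44.2% and 39.7% in sons and 70.7%, 77.2% and 76.9% in daughters, and 48 of them were called without son 1. Chromosome 18 had 71 of its 52883 windows called (0.134%), while the other autosomes had between 0.0228% and 0.0596%.

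Smaller groups, whose spans begin and end with a called window, lay at Oma1, with 10 of 79 windows called, at Scara5 and at Scp2 (a sterol carrier protein) with 8 each, and at Cmah, an enzyme of sialic acid metabolism, with 5. The group at Cyp2d9 had 4 of the 5 windows in its span called and that at Fgfr2 4 of 6. All of these were higher in daughters. The group spanning Cyp2b13 and Cyp2b9, with 5 of 36 windows called, was the 1 group higher in sons.

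**Figure D3:**
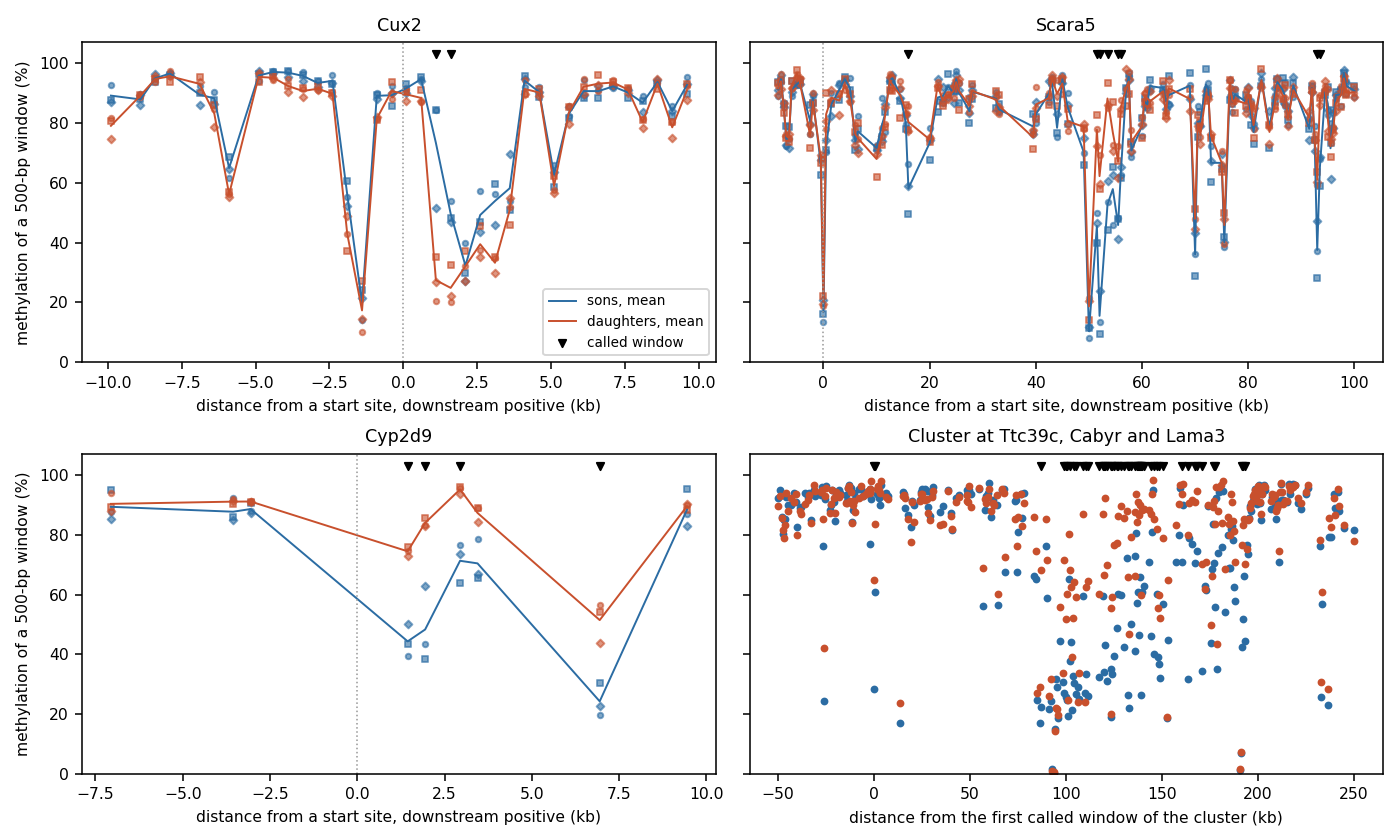
Methylation (percent) of each tested window against distance (kb) along 4 loci, with called windows marked at the top. Lines join the means of sons and of daughters and small points are animals, except in the panel from chromosome 18, where points are group means. In Cux2 the 2 called windows lie beside the internal start site, in Cyp2d9 they are 4 of the 9 windows drawn, and in the group on chromosome 18 the 50 called windows lie among windows that were not called.

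Windows higher in daughters were more often intronic than windows at large and were seldom close to a gene start. Of the 589, 84 overlapped an exon, 278 (47.2%) lay in introns, against 37.4% of all windows, and 227 (38.5%) between genes, compared with 48.3% between genes for all windows. Only 20 (3.40%) lay within 1 kb of an annotated start, against 6.10% of all windows, and their median distance to a start was 24944 bp against 30204 bp. Of the 34 windows higher in sons, 20 were intronic, 5 overlapped an exon, and 4 (11.8%) lay within 1 kb of a start. Strain variants were less frequent in them than elsewhere, in 15.4% of the windows higher in daughters and 5.88% of those higher in sons against 22.1% of all tested windows.

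Sequence letters were counted on both strands of each window. ATTGAT, whose reverse complement is ATCAAT, occurred in 204 (34.6%) of the windows higher in daughters, 14.7% of those higher in sons and 17.0% of all tested windows. ATCGAT occurred in 6.11%, 5.88% and 2.87%. TTCNNNGAA, the STAT core, occurred in 22.9%, 20.6% and 15.7%. Forkhead letters (TGTTTAC) occurred in 7.98%, 2.94% and 7.05%, the E-box CACGTG in 10.2%, 2.94% and 9.11%, and TGACGTCA in 0.509%, none and 0.568%. The G and C content was 44.6%, 53.4% and 46.0%, and windows higher in daughters had a median of 6 CpGs against 7 for all windows. Windows higher in daughters thus held the Onecut and Cux letters and the STAT core more often than all windows did, and held the forkhead, E-box and TGACGTCA letters about as often. A match of letters is a description and not a site of binding.

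Single CpGs were also tested. In a beta-binomial Wald test of the 6 animals, 6230 of 18471509 CpGs (0.0337%) had p below 1e-05, 5811 (0.0315%) higher in daughters and 419 (0.00227%) higher in sons. Without son 1, 6177 of 18493022 (0.0334%) passed, 5326 (0.0288%) higher in daughters and 851 (0.0046%) higher in sons. Without son 3 and without daughter 2 the number was 3805 each. The called windows held 4461 CpGs, of which 4241 (95.1%) differed in the direction of their window and 1544 (34.6%) passed the single-site threshold. As these CpGs are the ones summed to call the windows, this is a description.

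Joining these CpGs gave 115 differentially methylated regions (DMRs), 110 higher in daughters and 5 higher in sons, with a median length of 315 bp and 6 CpGs. Their median difference was 40.96 points in daughters and -39.4 points in sons. Of the 115, 95 overlapped a called window of the same direction and 74 were DMRs again without son 1. In the other direction of this comparison, only 118 of the 623 called windows overlapped a DMR of the same direction. Their number fell to 63 without son 2, 63 without son 3 and 53 without daughter 2. The DMR of Sntg2 spanned chr12:31026707-31026983. The DMR at chr11:106811732-106811799, between genes and 29703 bp upstream of Smurf2 (a ubiquitin ligase), had sons at 41.5% or less and daughters at 70.1% or more, a difference of 55.2 points, and was not a DMR again without son 3, daughter 2 or daughter 3. The DMRs in introns of Ttc39c and Cyth3 (a cytohesin) and 23333 bp downstream of the start of Nolc1 (a nucleolar phosphoprotein) differed by 51.7 to 52.7 points, and the last overlapped no called window. The 5 DMRs higher in sons were at BC089597, Cux2 (-41.4 points), Nkx1-1 (-39.4), Cyp2b13 (-38.8) and Cyp2b9 (-36.7). The Nkx1-1 DMR was not found without son 1, son 2, daughter 1 or daughter 2, the Cyp2b13 DMR without son 2, son 3 or daughter 2, and the Cyp2b9 DMR without son 2.

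The differences between C3B6F1 sons and daughters were also present in the other groups, whose own sex differences were not used to choose the windows, although their animals entered the count minimum and the estimate of spread. At the 589 windows higher in daughters, females were the higher sex at 588 in B6C3F1 offspring, 584 in B6 parents and 585 in C3 parents. Over all windows, females were the higher sex at 50.2%, 41.6% and 39.9%. The difference passed both thresholds in the same direction at 417 (70.8%), 403 (68.4%) and 467 (79.3%) of them and in the opposite direction at none. Over all windows, 789 (0.0542%) were called higher in females in B6C3F1 offspring, 898 (0.0616%) in B6 parents and 1455 (0.0999%) in C3 parents. Median differences at the 589 were 25.4, 24.8 and 30.3 points, while over all windows they were 0.00670, -0.454 and -0.552 points.

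At the 34 windows higher in C3B6F1 sons, males were the higher sex at all 34 in each of the 3 other comparisons, and 26 (76.5%) were called in each. Over all windows, males were the higher sex at 49.8% in B6C3F1 offspring, 58.4% in B6 parents and 60.1% in C3 parents. The corresponding shares of all windows called higher in males were 96 windows (0.00659%), 554 (0.038%) and 790 (0.0542%). In total, 345 of the 623 windows were called in all 4 comparisons and 68 in no other. The comparisons share no animal, although the B6 sires and C3 dams are the parents of the C3B6F1 offspring. The parent females had nursed a litter, so pregnancy and sex cannot be told apart among the parents, whereas the B6C3F1 daughters had not.

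**Figure D4:**
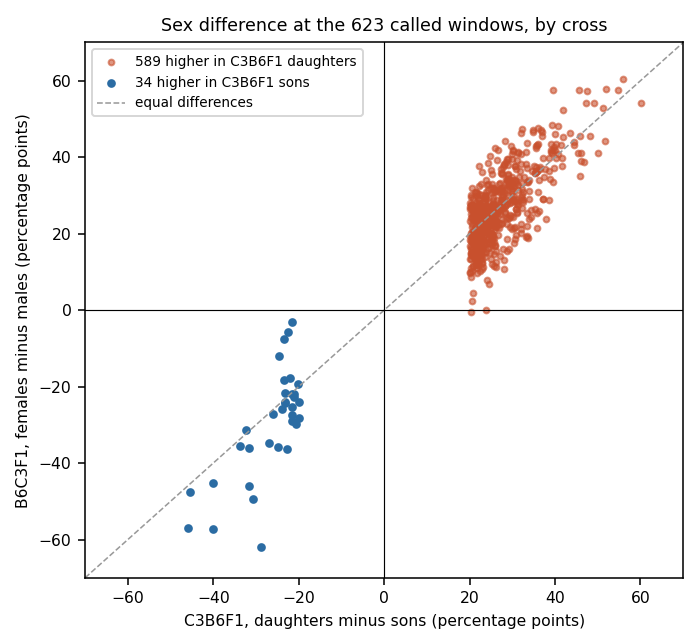
Difference between females and males (percentage points) in C3B6F1 offspring (x axis) and in B6C3F1 offspring (y axis) at the 623 windows called in C3B6F1, 1 point per window. All but 1 of the points have the same sign in both crosses, and the points lie on either side of the dashed line of equal differences.

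The sex difference differed between the 2 directions of the cross at 1 window of 1456902 (6.86e-05%). It lies in the Nkx1-1 region at chr5:33800001-33800500, where C3B6F1 sons were at 68.2%, 67.9% and 73.9% and daughters at 34.7%, 47.2% and 41.9%. B6C3F1 sons were at 79.1% ± 4.45 and daughters at 17.1% ± 1.43 (SD, n = 3). The difference between the sexes was 33.3 points smaller in C3B6F1 than in B6C3F1 (log2 2.46 ± 0.31 SE, limma interaction adjusted p = 0.00818). B6 parents were at 77.2% in males and 19.2% in females and C3 parents at 79.8% and 16.2%, so that the C3B6F1 daughters stood above the females of every other group. Without son 1 the estimate was 32.4 points with a limma adjusted p of 0.0744, and no window passed (0.0%). The call was also lost without daughter 2 (adjusted p = 0.0905) and without daughter 3 (0.0547). The stretch chr5:33800147-33800446 is printed because it holds 7 of the 10 CpGs of this window.
Nkx1-1: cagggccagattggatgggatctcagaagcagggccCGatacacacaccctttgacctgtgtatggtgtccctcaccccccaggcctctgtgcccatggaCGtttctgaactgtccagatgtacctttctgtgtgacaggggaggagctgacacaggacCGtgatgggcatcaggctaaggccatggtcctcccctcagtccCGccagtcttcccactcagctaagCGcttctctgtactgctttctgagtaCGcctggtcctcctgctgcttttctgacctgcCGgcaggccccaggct

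Son 1 was measured against the other animals at windows called without its methylation levels, although the count minimum was met in all 24 animals, son 1 included. A scale was set with 0 at the mean of sons 2 and 3 and 1 at the mean of the daughters. At the 699 windows called higher in daughters without it, son 1 was at 51.2%, sons 2 and 3 at 42.9% and the daughters at 71.2%, a position of 0.292. It was above the mean of the other sons at 633 of these windows, below the mean of the daughters at 694, and nearer the daughters at 113. At the 52 windows called higher in sons without it, the position was 0.350. At windows called in the reciprocal cross, from the fit whose estimate of spread includes son 1, it was 0.216 where females were higher and 0.240 where males were higher. Sons 2 and 3 were at 0.0932 and -0.0932 in the first of these sets and at 0.0268 and -0.0268 in the second. In the first set the mean levels of sons 1, 2 and 3 were 52.5%, 49.6% and 45.0%, so sons 2 and 3 also lay apart from each other.

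On the same scale for chromosome X, son 1 was at 0.227 by depth and at 0.397 by methylation of CpG-dense windows. The depth ratio is the value by which son 1 was singled out. At X methylation and at the autosomal windows, which were not used for that, it also lay between the other sons and the daughters. The other animals were placed in the same way, each at windows called higher in daughters without it and between the means of the remaining sons and daughters. Sons 2 and 3 were then at 0.113 and -0.170 and the daughters at 0.822 to 1.00. At windows called higher in sons without them, sons 2 and 3 were at 0.0616 and -0.0674 and the daughters at 0.806, 0.884 and 0.754. Windows called between B6 and C3 parents were placed on a scale from B6 to C3. At those higher in C3, son 1 was at 0.405, and the other 5 C3B6F1 animals were at 0.426 to 0.459. B6C3F1 sons 2 and 3 were at 0.424 and 0.403 there, so son 1 lay inside the range of the sons of the reciprocal cross. At those higher in B6, son 1 was at 0.383, inside the range of the other 5 (0.340 to 0.389). The part that the position of son 1 between the other sons and the daughters had in the results was not tested. The share of the 751 windows called without son 1 that were also called in the other comparisons was 63.6% in B6C3F1, 60.9% in B6 and 73.1% in C3, against 71.1%, 68.9% and 79.1% of the 623.

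**Figure D5:**
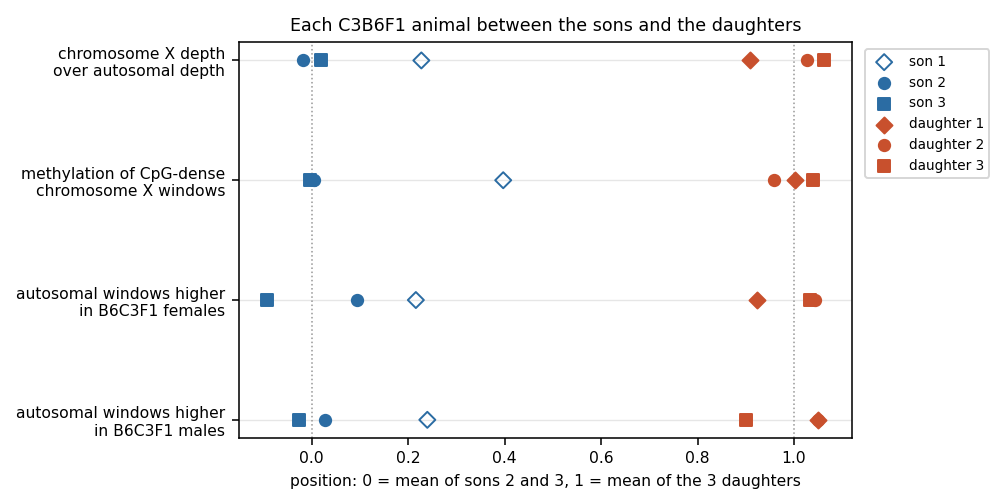
Position of each C3B6F1 animal on a scale with 0 at the mean of sons 2 and 3 and 1 at the mean of the daughters, for 4 quantities: X-to-autosome depth, methylation of CpG-dense X windows, and autosomal windows called higher in B6C3F1 females or in B6C3F1 males. Son 1 lies between 0.216 and 0.397 in all 4, of which the X-to-autosome depth is the value by which it was singled out.

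Marker genes of liver cell types were checked beside these results. Only windows within 1000 bp of a start site were used for these genes. None of the genes listed for hepatocytes, Kupffer cells, endothelium, lymphocytes, stellate cells or cholangiocytes had a called window, out of 34 genes with windows. Of all protein-coding genes, 1.42% were called higher in daughters and 0.101% higher in sons, but over the gene and 10 kb upstream. That span is wider, so the count of 0 among 34 cannot be set against those shares. Mean methylation at the hepatocyte genes was 31.4% ± 2.85 in sons and 32.1% ± 5.14 in daughters (SD, n = 3 each). Windows were found for 4 of the 8 listed Kupffer cell names, and Adgre1 and Emr1 on that list name the same gene. Mean methylation was 78.0% ± 0.396 and 75.5% ± 0.301 at the Kupffer cell genes and 68.2% ± 0.909 and 66.2% ± 0.339 at the endothelial genes. At the lymphocyte genes it was 82.8% ± 0.861 and 81.4% ± 0.497. These 3 lists were lower in daughters by 1 to 3 points. Stellate cell genes were at 27.9% ± 0.298 and 28.2% ± 1.28 and cholangiocyte genes at 18.6% ± 1.62 and 19.4% ± 1.37. The part of cell composition in the differences between the sexes was not tested.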

How the data were processed

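Whole-genome bisulfite libraries of liver DNA from 24 mice, 3 per sex in each of 4 genotypes, were used. Per the submitters' notes and the study's methods, the authors aligned reads to mm9 with Bismark 0.7.8 and Bowtie 0.12.8 and removed duplicates. They deposited, for each CpG and animal, the methylated and the unmethylated read counts as whole numbers. CpGs altered by a strain variant had been left out by the authors. A deposited list of single-nucleotide variants between the strains and the reference, a file of positions and bases with no measured value, was used only to count variants per window.

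All values here were computed from the counts as deposited, on autosomes. Counts were summed in 500-bp windows, and windows with at least 5 CpGs and 30 counts in every animal were kept. The level of a group is the mean of its animals' percents. Windows were fitted by limma 3.58.1 in R 4.3.3 (trend and robust) on log2 of the ratio of methylated to unmethylated counts, with 1 added to each, over 8 group means. Windows that differed by 20 points or more, with p below 0.05 after Benjamini-Hochberg adjustment, are referred to as called. This test on log2 ratios was used in place of count models for expression, which do not take a methylated and an unmethylated count. Single CpGs were tested by a beta-binomial Wald test in Python 3.11.15 (numpy 2.4.6, scipy 1.17.1, pandas 2.3.3), written after the method named by the study, and joined into DMRs by the study's filters (at least 5 CpGs, 20 points, depth up to 500 and depth ratio up to 5). CpGs in a DMR run had p below 1e-05 in at least 75% of cases. Both procedures were tested on simulated data. Autosomal totals of 368500712 to 608172774 counts per C3B6F1 animal set the precision. Called windows within 500 bp of each other in the same direction were joined into a region.

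The items named were the 10 regions with the largest difference in each direction whose sons and daughters did not overlap, which held a window called also without son 1 and had at least 10 counts per CpG, the 5 largest DMRs in each direction and up to 4 called genes of each list, and others are said to be named after their values were seen. A gene's windows were those in the gene and 10 kb upstream. For the cell type markers they were those within 1000 bp of a start site. The comparison and the gene lists were chosen with earlier results of these data known. Annotation was GENCODE for mm9. The labels do not say what a replicate number marks, and the numbers were not used as pairs (correlations of the deviations of same-numbered sons and daughters were 0.0649, 0.0198 and 0.0183). The animals are separate mice, 3 per group, and counts from 1 library are not independent molecules beyond duplicate removal, so precision is given by the spread between animals. The FOXA1 ChIP and input samples of the series (12 in all, from B6 and C3 males) were not used here. Alternatives are given in the closing section.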

Additional observations from a re-analysis of the deposited data

Results flagged for a closer look

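The sex difference at the Nkx1-1 window was 33.3 points smaller in C3B6F1 than in B6C3F1 offspring, the only window where the limma interaction test of the 2 crosses passed at 20 points or more. It no longer passed without son 1, daughter 2 or daughter 3.

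On chromosome X, which no comparison used, C3B6F1 son 1 had a depth ratio to the autosomes of 0.600, the value by which it was singled out and so a description, and a median methylation of 11.7% at CpG-dense windows. Both values lay above those of the 11 other males, which reached 0.521 and 1.90%, and below those of all 12 females.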

How the results depend on the processing

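Each count was recomputed with 1 choice changed at a time. Of the 300 recomputed differences of named windows, in which the 4 windows named both as a region and as a list gene (Cux2, Cyp2b13, Cyp2b9 and Cyp2c69) count under both, 286 kept direction and threshold, 14 kept direction and lost the threshold, and none reversed. The 6 C3B6F1 animals alone gave 517 windows, and the named windows of Cux2, BC089597, Elovl6 and Srd5a1 lost the threshold. Of 110 for named DMRs, 97 were found again and 13 were not. Leaving out each animal in turn gave 376 to 751 windows (376 without son 3 and 751 without son 1), 0 to 3 windows in the sex-by-cross test, 3805 to 6177 single CpGs (3805 without son 3 or daughter 2) and 53 to 96 DMRs (53 without daughter 2). A minimum of 3 CpGs per window gave 1143 calls, a minimum difference of 10 points gave 1250 and of 30 points 158. Higher methylation in daughters made up 91.3% to 95.6% of the calls under these and the other alternatives for windows, and 1197 of 1334 on the adjusted p alone. At p below 0.0001, 11052 CpGs and 185 DMRs passed, and with a 50% share of passing CpGs 228 DMRs. Smoothing over 250 bp gave 2028 CpGs, of which 78.5% were higher in daughters against 93.3% unsmoothed. The cause of that shift was not tested. The position of son 1 at windows higher in sons moved from 0.350 to 0.240 when the windows were chosen in B6C3F1 animals, an alternative chosen after seeing the data, as was the count of other comparisons at the windows called without son 1.

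Fitted with the replicate number as a block, 620 windows were called, 586 of them higher in daughters and 601 shared with the 623, and 1 window in the sex-by-cross test. Each animal correlated best with the animal of its own number, at 0.0649, 0.0198 and 0.0183, against -0.0348 to 0.0131 for the other pairs. These values are all small and do not show what a number marks. The replicate block changed no call of a named window. The difference in mean autosomal methylation kept its sign under every alternative tried, from -0.0794 to -0.640 points. A CpG held 19.5 to 32.2 counts per animal on average, which limits the precision at single sites.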
